A study of Mus musculus with 16 samples.

Results

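The heat shock chaperones are 10 genes that keep proteins folded under stress: Hspa1a, Hspa1b, Hspb1, Hsph1, Dnajb1, Dnaja1, Hsp90aa1, Hspa8, Cryab and Bag3. They were taken by symbol from a table of 23970 gene symbols measured by RNA-seq in mouse quadriceps, and each symbol had a single entry. All 10 passed the minimum for testing (0.5 FPKM or more on average across the 16 mice, which 11256 genes passed). The mice were male C57BL/6NTac animals of 16 weeks of age in 4 groups of 4, with different mice in each group. CON mice had been fed a diet with 10% of its energy from fat and HFD mice a diet with 60%, each for 10 weeks. The pre groups (CON-pre and HFD-pre) were sampled without the maximal treadmill test, and the post groups (CON-post and HFD-post) 3 h after a single test to exhaustion. All 4 groups shared the acclimatization to the treadmill and the fast before sampling. The study asked how a single bout of exercise and obesity from a high-fat diet change muscle transcripts, and the comparisons here are exercise within each diet, diet before and after exercise, and whether the response to exercise differed between diets.

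Heat shock proteins bind unfolded stretches of other proteins and prevent them from aggregating. Hsp70 proteins fold clients in cycles of ATP hydrolysis, Hsp40 proteins hand clients to them, Hsp110 proteins release the nucleotide, and Hsp90 proteins finish the folding of kinases and receptors. Small heat shock proteins hold unfolded proteins without ATP and are abundant at the Z-discs of muscle, where Bag3 joins them to Hsp70. Heat, ATP depletion and mechanical load activate heat shock factor 1 (HSF1), which binds inverted GAA repeats called heat shock elements upstream of these genes, and muscle is known for a rise of Hsp70 after hard exercise.

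After exercise the Hsp70 pair Hspa1a and Hspa1b rose together in CON mice, the summed level being 63.4 ± 31.2 FPKM in CON-post and 8.44 ± 4.33 in CON-pre (mean ± SD, n = 4 in each group here and below). In HFD mice the sum was 30.5 ± 19.8 FPKM in HFD-post and 7.15 ± 2.26 in HFD-pre, with no overlap between groups but an adjusted p above 0.05. Bag3 also rose in CON mice, and Hspb1 passed the test when exercise was averaged over both diets. The constitutive Hspa8, the Hsp110 gene Hsph1 and the lens and muscle chaperone Cryab did not pass in any comparison. Nor did Dnaja1, the inducible Hsp90aa1 and, apart from some alternative and left-out fits, the inducible Dnajb1.

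FPKM (fragments per kilobase of transcript, relative to all mapped fragments) was estimated by the authors and is scaled for gene length and library size. Tests were made with limma on log2(FPKM + 0.5) over all 16 libraries, with Benjamini-Hochberg adjustment over 11256 genes and a threshold of 0.05. The added 0.5 makes a fold change of a gene with low FPKM look smaller than it is. FPKM sums were between 283575 and 329282 per library, and the values of low genes gave a relative depth between 0.706 and 1.12, with no read counts behind them. Skeletal muscle markers summed to between 47332 and 64604 FPKM in every library, and those of HFD-pre (52895 to 57389) lay below those of CON-pre (59795 to 64604). Those of CON-post (52727 to 61556) overlapped CON-pre. The 10 highest genes of each library held 33.8 to 36.5% of its FPKM in CON-pre and 31.8 to 33.2% in CON-post, without overlap. In HFD that share overlapped, with 30.7 to 34.3% before and 29.2 to 32.5% after exercise. Its part in the results was not tested. Adipocyte markers summed to between 57.4 and 198 FPKM, and the sums of HFD-pre (63.6 to 76.6) lay below those of CON-pre (123 to 197). Such a sum is weighted towards the most abundant genes of its list. A score weighting each gene equally (its log2 level minus its mean over the 16 mice, averaged over the list) overlapped between HFD-pre and CON-pre. The adipocyte score ran from -0.28 to 0.02 in HFD-pre and from -0.36 to 0.31 in CON-pre. The skeletal muscle score ran from -0.14 to 0.05 and from -0.07 to 0.11. In bulk tissue, fewer cells of a type and less RNA per cell cannot be told apart. The p-values measure the spread between the mice sequenced here, since each library is a different animal.

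Promoter windows from RefSeq (GRCm38.p6) matched 7 of the 10 members, not Hspa8, Cryab and Hsp90aa1. The 4 stretches below are the 250 bases upstream of the annotated start, 5′ to 3′ on the strand of the gene. They are shown because they belong to the genes that passed the test after exercise, and capitals mark a pair of inverted GAA units (GAANNTTC or TTCNNGAA, the core of a heat shock element).
Hspa1a, chr17:34972157-34972406 minus strand: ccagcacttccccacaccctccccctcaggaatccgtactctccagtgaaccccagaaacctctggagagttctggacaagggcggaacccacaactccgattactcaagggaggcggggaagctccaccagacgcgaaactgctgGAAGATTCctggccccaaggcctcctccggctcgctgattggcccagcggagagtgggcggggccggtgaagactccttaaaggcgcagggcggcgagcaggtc
Hspa1b, chr17:34959239-34959488 minus strand: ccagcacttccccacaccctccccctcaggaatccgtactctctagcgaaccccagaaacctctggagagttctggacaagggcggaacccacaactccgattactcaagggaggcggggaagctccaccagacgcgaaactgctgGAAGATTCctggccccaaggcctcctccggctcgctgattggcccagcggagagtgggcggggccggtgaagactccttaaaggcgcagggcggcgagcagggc
Hspb1, chr5:135887669-135887918 plus strand: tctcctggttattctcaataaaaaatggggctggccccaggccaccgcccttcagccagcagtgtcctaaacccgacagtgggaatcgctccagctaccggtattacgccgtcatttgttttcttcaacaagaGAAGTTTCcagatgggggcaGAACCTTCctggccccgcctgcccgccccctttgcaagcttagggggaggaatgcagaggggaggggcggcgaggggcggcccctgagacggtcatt
Bag3, chr7:128523333-128523582 plus strand: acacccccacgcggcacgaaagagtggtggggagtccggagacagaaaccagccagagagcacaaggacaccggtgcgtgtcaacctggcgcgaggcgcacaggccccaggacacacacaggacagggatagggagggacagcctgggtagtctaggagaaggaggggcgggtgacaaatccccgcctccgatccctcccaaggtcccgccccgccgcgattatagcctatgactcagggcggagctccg

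The Hspa1a and Hspa1b windows differed at 3 of 250 positions (98.8% identity), and both held GAAGATTC between 97 and 104 bases upstream of the start. Hspb1 held a pair of such matches, GAAGTTTC at 110 to 117 bases and GAACCTTC at 90 to 97 bases upstream. Bag3 held no match of these letters in its window, and it alone of the 7 held TATAA (searched on both strands), 26 to 30 bases upstream, where 25.8% of genes have it. Hsph1 (TTCTCGAA) and Dnaja1 (GAAAATTC, in the first of its windows only) held the letters too and Dnajb1 did not. That made 5 of 7 members with the letters, where 14.5% of 27025 genes with a window have them. Counted by window it was 6 of 11, where 12.8% of 32851 windows have them. The near-identical windows of Hspa1a and Hspa1b enter these counts separately. The longer form of 3 units was found in 0 of 7 members and in 0.514% of genes, and CCAAT was found in 5 of 7 members and in 37.5% of genes. The letters were thus present in members that passed the test and in members that did not, and a match is a description of the sequence, not a site in use.

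The inducible Hsp70 genes Hspa1a and Hspa1b are neighbours on chromosome 17 (GRCm38.p6), at 34969359 to 34972156 and 34956429 to 34959238. Their coding sequences differ in 11 of 1929 aligned positions (99.4% identity). Reads from the identical coding stretches cannot be assigned to one or the other, so the split between them is uncertain. The untranslated ends of the transcripts were not compared. Hspa1a held between 50.7 and 62.7% of the summed FPKM of the pair (median 54.1%), and its share was between 50.8 and 53.2% in CON-post. The sum does not depend on the split, and it is given first.

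The sum was 6.43, 6.77, 14.9 and 5.66 FPKM in CON-pre replicates 1 to 4, and 75.4, 59.7, 96.2 and 22.4 FPKM in CON-post. CON-post replicate 4 was far below the other CON-post mice but above all 4 CON-pre mice, of which replicate 3 was the highest. On the log2 scale the sum rose by 2.76 after exercise in CON (SE 0.44, 95% interval 1.84 to 3.69, adjusted p = 0.00275), a 6.78-fold change. An exact two-sided permutation test of the 4 against 4 mice gave p = 0.0286, the smallest that this design allows, and 0.0571 after adjustment over 4 comparisons of the sum.

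In HFD mice the sum was 6.52, 6.32, 5.30 and 10.4 FPKM before exercise and 15.3, 59.5, 21.5 and 25.7 FPKM after it. All 4 HFD-post values lay above all 4 HFD-pre values, and HFD-post replicate 2 stood well above the other HFD-post mice. The log2 fold change was 1.87 (SE 0.44, 95% interval 0.95 to 2.80, adjusted p = 0.0800), or 3.66-fold, so it did not pass the threshold over all genes. The exact permutation p of the sum was 0.0286 and its adjusted value 0.0571, as in CON. Without CON-post replicate 4, which is not in this comparison but enters the common estimate of spread, the adjusted p was 0.0290. Without HFD-post replicate 2 the log2 fold change was 1.49 and the adjusted p 0.238. Over 14 alternatives and 16 fits that each left out 1 mouse, the adjusted p of the sum in HFD ran from 0.0290 to 0.238 and was under 0.05 in 2 of the 30.

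Averaged over both diets, the sum rose by 2.32 on the log2 scale (SE 0.31, 95% interval 1.66 to 2.97, adjusted p = 3.20e-04). The order of the group means was CON-post, HFD-post, CON-pre and HFD-pre. The first pair of neighbours overlapped, as did the last pair, while the lowest HFD-post mouse (15.3 FPKM) lay just above the highest CON-pre mouse (14.9 FPKM).

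Taken singly, Hspa1a was 3.52, 3.75, 8.78 and 3.02 FPKM in CON-pre and 39.8, 30.4, 51.1 and 11.4 FPKM in CON-post. Hspa1b was 2.91, 3.02, 6.11 and 2.64 FPKM in CON-pre and 35.6, 29.3, 45.0 and 11.0 FPKM in CON-post. Each gene was higher in every CON-post mouse than in any CON-pre mouse. The log2 fold changes in CON were 2.60 for Hspa1a (SE 0.42, adjusted p = 0.00353) and 2.79 for Hspa1b (SE 0.44, adjusted p = 0.00253).

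In HFD-pre, Hspa1a was 3.75, 3.74, 3.32 and 5.30 FPKM and in HFD-post 8.63, 30.1, 11.0 and 14.6 FPKM. Hspa1b was 2.77, 2.58, 1.98 and 5.15 FPKM in HFD-pre and 6.71, 29.3, 10.5 and 11.1 FPKM in HFD-post. Neither gene overlapped between the HFD groups, and in both the high value of HFD-post replicate 2 widened the spread. The log2 fold changes were 1.73 for Hspa1a (SE 0.42, adjusted p = 0.101) and 1.90 for Hspa1b (SE 0.44, adjusted p = 0.0755).

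**Figure D1:**
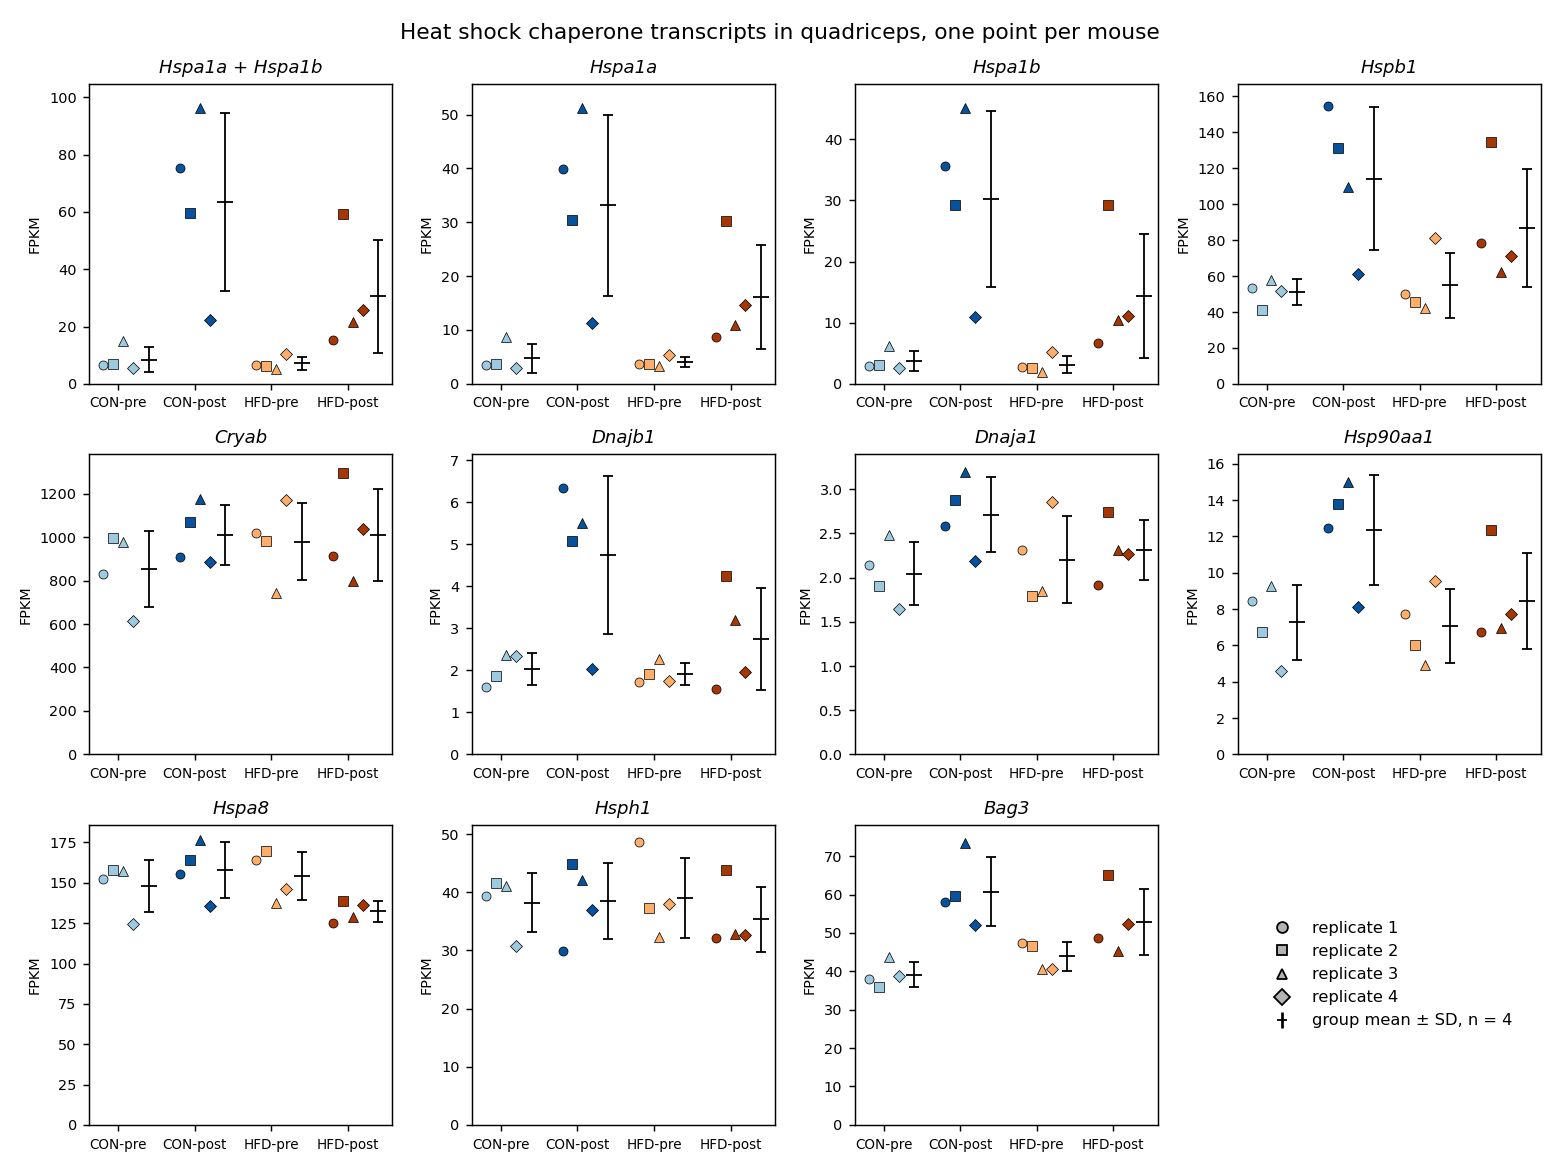
FPKM of each heat shock chaperone and of the summed Hspa1 pair (linear vertical axes from 0) by group, with 1 point per mouse, the shape giving the replicate number and the bar the group mean ± SD (n = 4). The Hspa1 sum runs from 5.30 to 14.9 FPKM in the pre mice and from 15.3 to 96.2 in the post mice, while Hspa8 stays between 124 and 176 FPKM in all 16.

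The small heat shock proteins were the most and the third most abundant members. Hspb1 (Hsp25 in the mouse, a chaperone that also binds actin and intermediate filaments) was 53.5, 41.2, 57.9 and 51.6 FPKM in CON-pre and 155, 131, 110 and 61.1 FPKM in CON-post. All 4 CON-post mice were above all 4 CON-pre mice, replicate 4 by the least. Its log2 fold change in CON was 1.09 (SE 0.28, 95% interval 0.50 to 1.67, adjusted p = 0.0738), which did not pass.

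In HFD mice Hspb1 was 50.3, 45.4, 42.5 and 81.4 FPKM before exercise and 78.3, 135, 62.3 and 71.5 FPKM after it. HFD-pre replicate 4 was above 3 of the 4 HFD-post mice, so the groups overlapped. The log2 fold change in HFD was 0.64 (SE 0.28, adjusted p = 0.372). With both diets averaged Hspb1 rose by 0.86 (SE 0.20, 95% interval 0.45 to 1.28, adjusted p = 0.0202). Without CON-post replicate 4 it passed in CON as well, with a log2 fold change of 1.36 and an adjusted p of 0.0104, and without HFD-post replicate 2, which is not in that comparison, its adjusted p in CON was 0.0465. These were the 2 of 30 alternatives and left-out fits in which it was under 0.05 in CON, the others reaching 0.218 with a log2 fold change of 0.91 (without CON-post replicate 1).

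Cryab (αB-crystallin, which protects desmin and titin in muscle) was the most abundant member, with a mean of 963 FPKM over the 16 mice, the 25th highest of the genes tested. It was 828, 994, 977 and 615 FPKM in CON-pre and 908, 1068, 1178 and 885 FPKM in CON-post. It was 1021, 982, 743 and 1171 FPKM in HFD-pre and 912, 1295, 799 and 1035 FPKM in HFD-post. Every group overlapped every other, and both the lowest mouse (CON-pre replicate 4) and the highest (HFD-post replicate 2) belonged to groups with wide spreads. The log2 fold change after exercise was 0.26 in CON (95% interval -0.11 to 0.63, adjusted p = 0.635) and 0.04 in HFD (95% interval -0.33 to 0.41, adjusted p = 0.955).

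Bag3 (a cochaperone that ties Hsp70 to small heat shock proteins and directs damaged filamin to autophagy) was 37.9, 36.0, 43.7 and 38.9 FPKM in CON-pre and 58.1, 59.6, 73.3 and 52.2 FPKM in CON-post. The groups did not overlap, and within each the mice were close to one another. Bag3 rose by 0.62 on the log2 scale (SE 0.11, 95% interval 0.38 to 0.86, adjusted p = 0.00862), a 1.54-fold change with the smallest standard error of the members that passed.

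In HFD mice Bag3 was 47.5, 46.7, 40.7 and 40.6 FPKM before exercise and 48.8, 65.1, 45.4 and 52.4 FPKM after it. A single HFD-post mouse, replicate 3, lay within the HFD-pre range. The log2 fold change was 0.26 (SE 0.11, 95% interval 0.02 to 0.50, adjusted p = 0.383) in HFD and 0.44 (SE 0.08, adjusted p = 0.00499) averaged over the diets.

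The Hsp40 genes were the lowest members. Dnajb1, the main stress-inducible partner of Hsp70 in the cytosol, was 1.59, 1.86, 2.36 and 2.34 FPKM in CON-pre and 6.35, 5.07, 5.50 and 2.04 FPKM in CON-post. In CON-post, 3 mice were above all CON-pre mice and replicate 4 was within their range. Its log2 fold change in CON was 0.96 (SE 0.28, 95% interval 0.37 to 1.55, adjusted p = 0.132), and without CON-post replicate 4 it was 1.28 with an adjusted p of 0.00761, the 1 of 30 alternatives and left-out fits in which Dnajb1 was under 0.05 in CON (adjusted p up to 0.341 in the others).

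Dnajb1 was 1.73, 1.91, 2.28 and 1.75 FPKM in HFD-pre and 1.57, 4.26, 3.20 and 1.97 FPKM in HFD-post. HFD-post replicate 1 was the lowest of these 8 mice and replicate 2 the highest. The log2 fold change was 0.35 (95% interval -0.23 to 0.94, adjusted p = 0.662) in HFD, 0.15 there without replicate 2 of HFD-post, and 0.66 (SE 0.20, adjusted p = 0.0755) averaged over the diets.

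Dnaja1, which serves constitutive Hsp70 in protein import and folding, was 2.15, 1.90, 2.48 and 1.65 FPKM in CON-pre and 2.59, 2.88, 3.19 and 2.19 FPKM in CON-post. It was 2.32, 1.79, 1.85 and 2.86 FPKM in HFD-pre and 1.91, 2.74, 2.32 and 2.27 FPKM in HFD-post. The pre and post mice overlapped in both diets. The log2 fold changes were 0.34 in CON (SE 0.14, adjusted p = 0.388) and 0.06 in HFD (SE 0.14, adjusted p = 0.905).

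Hsp90aa1, the inducible cytosolic Hsp90, was 8.46, 6.72, 9.30 and 4.60 FPKM in CON-pre and 12.5, 13.8, 15.0 and 8.09 FPKM in CON-post. Again 3 CON-post mice were above all CON-pre mice and replicate 4 was not. It was 7.70, 6.02, 4.93 and 9.57 FPKM in HFD-pre and 6.75, 12.4, 6.94 and 7.74 FPKM in HFD-post, where only replicate 2 was above the HFD-pre range. The log2 fold changes were 0.73 in CON (SE 0.25, 95% interval 0.21 to 1.25, adjusted p = 0.217) and 0.24 in HFD (SE 0.25, adjusted p = 0.755), the latter being 0.053 without HFD-post replicate 2.

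The constitutive Hsp70 gene Hspa8, which folds new proteins in unstressed cells, was 153, 158, 158 and 124 FPKM in CON-pre and 155, 164, 176 and 136 FPKM in CON-post. It was 164, 169, 137 and 146 FPKM in HFD-pre and 125, 139, 129 and 136 FPKM in HFD-post. In HFD, 3 of the 4 post mice were below all pre mice, and replicate 2 (139 FPKM) was just above the lowest of them (137 FPKM). The log2 fold changes were 0.09 in CON (95% interval -0.11 to 0.29, adjusted p = 0.780) and -0.22 in HFD (95% interval -0.42 to -0.02, adjusted p = 0.377).

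Hsph1, an Hsp110 that exchanges the nucleotide of Hsp70, was 39.4, 41.5, 41.1 and 30.7 FPKM in CON-pre and 29.9, 44.8, 42.0 and 37.0 FPKM in CON-post. It was 48.7, 37.3, 32.3 and 37.9 FPKM in HFD-pre and 32.2, 43.7, 32.7 and 32.6 FPKM in HFD-post. The groups overlapped, and HFD-post replicate 2 stood apart from 3 near-equal mice. The log2 fold changes were 0.00 in CON (95% interval -0.31 to 0.31, adjusted p = 0.997) and -0.14 in HFD (95% interval -0.45 to 0.17, adjusted p = 0.763). The window of Hsph1 held the inverted GAA letters although its level did not pass the test.

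Counted together, 3 of the 10 members passed in the CON exercise comparison (Hspa1a, Hspa1b and Bag3), all higher, where 0.968% of the genes tested passed in that direction. At an unadjusted p under 0.05 there were 7 members, and 11.1% of all genes. All 10 estimates were above 0, with a median of 0.68 against -0.01 over all genes tested, and 4 members (with Hspb1) were higher without overlap, as were 3.29% of all genes.

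In the HFD exercise comparison limma called 0 of the 10, where 0.489% of genes passed as higher, and 5 had an unadjusted p under 0.05 (11.7% of all genes), Hspa8 among them with a negative estimate. That number was 3 without HFD-post replicate 2 or without any 1 of HFD-pre replicates 1, 2 and 3, and also with upper-quartile scaling or an adipocyte score as a covariate. Over all 11256 genes it was 1083, 1076, 982, 1142, 1371 and 1160 in the same 6 fits, in that order, against 1320 with all mice. The median of the 10 was 0.25 against 0.04 over all genes, 8 estimates were above 0, and 2 members (Hspa1a and Hspa1b) were higher without overlap, against 4.72% of genes. Averaged over the diets 4 of 10 passed, all higher (Hspa1a, Hspa1b, Bag3 and Hspb1), where 2.95% of genes did. Without CON-post replicate 4, the counts were 5 of 10 in CON (with Hspb1 and Dnajb1), 2 of 10 in HFD (Hspa1a and Hspa1b) and 5 of 10 averaged, where 0.924, 0.444 and 2.67% of all genes passed as higher in the same fits. Without HFD-post replicate 1, which was lowest of its group in 7 members, Hspa1b passed in HFD, as did 0.542% of genes as higher.

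**Figure D2:**
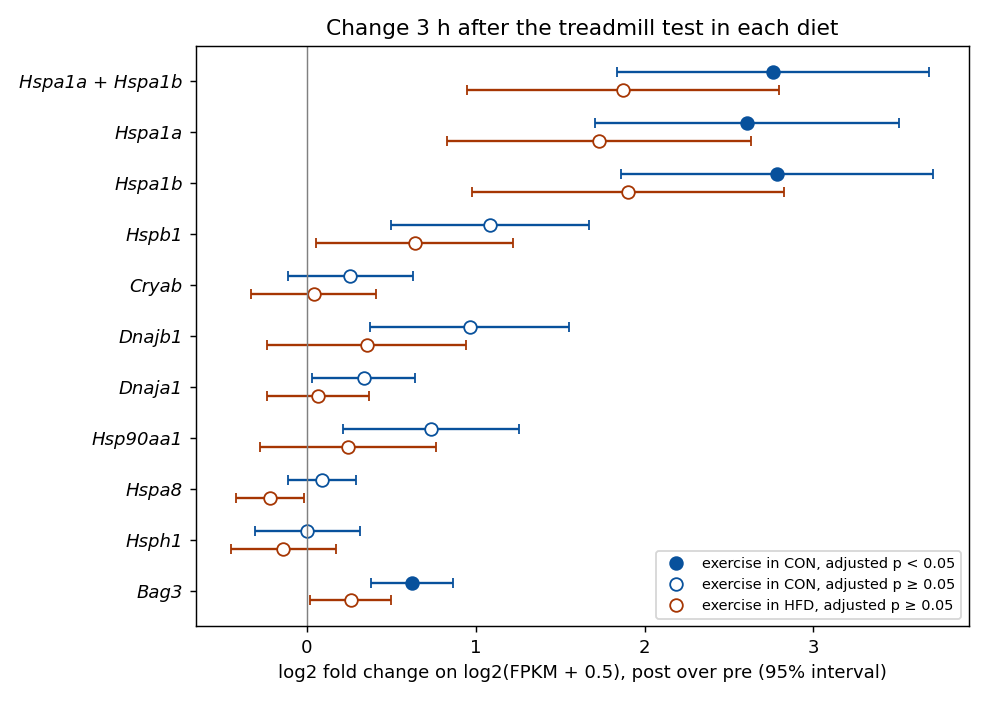
Log2 fold change after exercise (post over pre, horizontal axis on log2(FPKM + 0.5)) of each member and of the Hspa1 sum in CON (blue) and HFD (orange), with 95% intervals from limma, filled where the adjusted p was under 0.05. The filled points are the Hspa1 sum, Hspa1a, Hspa1b and Bag3 in CON, and the interval in HFD overlaps the interval in CON for every gene shown.

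The response to exercise was then compared between diets, as the difference of the HFD and the CON log2 fold changes. limma called 0 of the 10 members, and 0% of all genes tested passed, so this comparison named no gene at all. The estimate was below 0 for all 10 members, with a median of -0.40 against 0.04 over all genes, and 2 members (Bag3 and Hspa8) had an unadjusted p under 0.05, as did 3.16% of all genes. With a mouse left out that number ran from 0 (in 7 of the 16 fits, CON-pre replicate 4 and CON-post replicate 2 among the mice left out) to 6 (without CON-post replicate 4, where 396 of the 11256 genes were under that value, against 356 with all mice). The members are not independent of one another in these mice, so 10 estimates of 1 sign are not 10 observations.

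For the Hspa1 sum the difference was -0.89 (SE 0.62, 95% interval -2.20 to 0.42, unadjusted p = 0.169, adjusted p = 1.00). That interval includes both no difference and a response in HFD smaller by 2.20 on the log2 scale. For Bag3 it was -0.36 (95% interval -0.71 to -0.02, unadjusted p = 0.0392) and for Hspa8 -0.31 (95% interval -0.59 to -0.03, unadjusted p = 0.0347), each with an adjusted p of 1.00.

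The diets were also compared before exercise. Of the 10 members 0 passed in HFD-pre against CON-pre with limma, where 0.346% of genes did, 0 had an unadjusted p under 0.05 (8.25% of all genes), and 0 were free of overlap, against 5.62% of genes. The widest interval was that of Hspa1b, with a log2 fold change of -0.20 (95% interval -1.13 to 0.72), and the narrowest that of Hspa8, with 0.06 (95% interval -0.14 to 0.26). The counts of 0 are near what these shares give for any 10 genes, and the interval of Hspa1b leaves room for a difference of over 1 on the log2 scale.

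After exercise all 10 members had a lower mean log2 level in HFD-post than in CON-post, and 0 passed with limma, where 0.151% of genes did. Non-overlapping groups were found for 0 of the 10, against 3.16% of genes. An unadjusted p under 0.05 was reached by 5 members, as it was by 6.29% of all genes: Hspa1a (log2 fold change -0.99), Hspa1b (-1.09), Dnajb1 (-0.67), Hsp90aa1 (-0.53) and Hspa8 (-0.25). That number depended on the fit, being 2 when only the 2 groups compared were fitted or when array weights were used. It also depended on single mice, being 0 without CON-post replicate 3, 1 without CON-post replicate 1 or HFD-post replicate 1, and 7 without CON-post replicate 4 or HFD-post replicate 2. In the same 5 fits, in that order, 635, 846, 667, 733 and 722 of the 11256 genes were under that value, against 708 with all mice. The sum was 1.05 lower on the log2 scale in HFD-post (95% interval 0.13 to 1.98 lower, adjusted p = 0.716), and its exact permutation p was 0.114. The comparisons of diet after exercise, of exercise and of the difference in response use the same post mice, so they do not count as separate evidence.

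Within groups, the same mice were often highest or lowest in several members. HFD-post replicate 2 was the highest of its group in 10 of 10 members, and CON-post replicate 4 was the lowest of its group in 9 of 10, Hsph1 being the exception. CON-post replicate 3 and CON-pre replicate 3 were each the highest in 7 members, and CON-pre replicate 4, HFD-pre replicate 3 and HFD-post replicate 1 were each the lowest in 7. Others went both ways: HFD-pre replicate 3 was the highest in Dnajb1, HFD-pre replicate 4 was the highest in 6 members but the lowest in Bag3, and CON-post replicate 1 was the highest in Hspb1 and Dnajb1 but the lowest in Hsph1. After the group means were subtracted, r with the Hspa1 sum was 0.40 for Hsph1 and 0.85 for Hsp90aa1.

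Blood markers (haemoglobins and Alas2) summed to 903 FPKM in HFD-post replicate 2 and to between 316 and 494 in the other HFD-post mice, and to 839 FPKM in CON-pre replicate 3 and between 380 and 411 in the other CON-pre mice. In CON-post replicate 4 they were 424 FPKM, inside the range of its group (336 to 483). With each blood gene weighted equally, however, the score of CON-post replicate 4 was -0.92, the lowest of all mice. That of HFD-post replicate 2 was 1.66, the highest. Sum and score could differ, as in HFD-post replicate 1, with the lowest sum of its group (316 FPKM) and a score of 0.73. The relative depth of HFD-post replicate 2 was 0.979 and that of CON-post replicate 4 was 1.06, both inside the range of the other libraries. Slow-fibre markers ranged from 178 to 731 FPKM and spanned most of that range in each group, from 181 to 731 in HFD-post. With a slow-fibre score as a covariate, and with an adipocyte score, the counts of members passing after exercise were still 3 in CON, 0 in HFD and 4 averaged over the diets. In the same 3 comparisons 1.14, 0.515 and 3.18% of all genes passed as higher with the slow-fibre score, and 0.915, 0.178 and 1.92% with the adipocyte score. The part of blood and depth in the results was not tested.

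**Figure D3:**
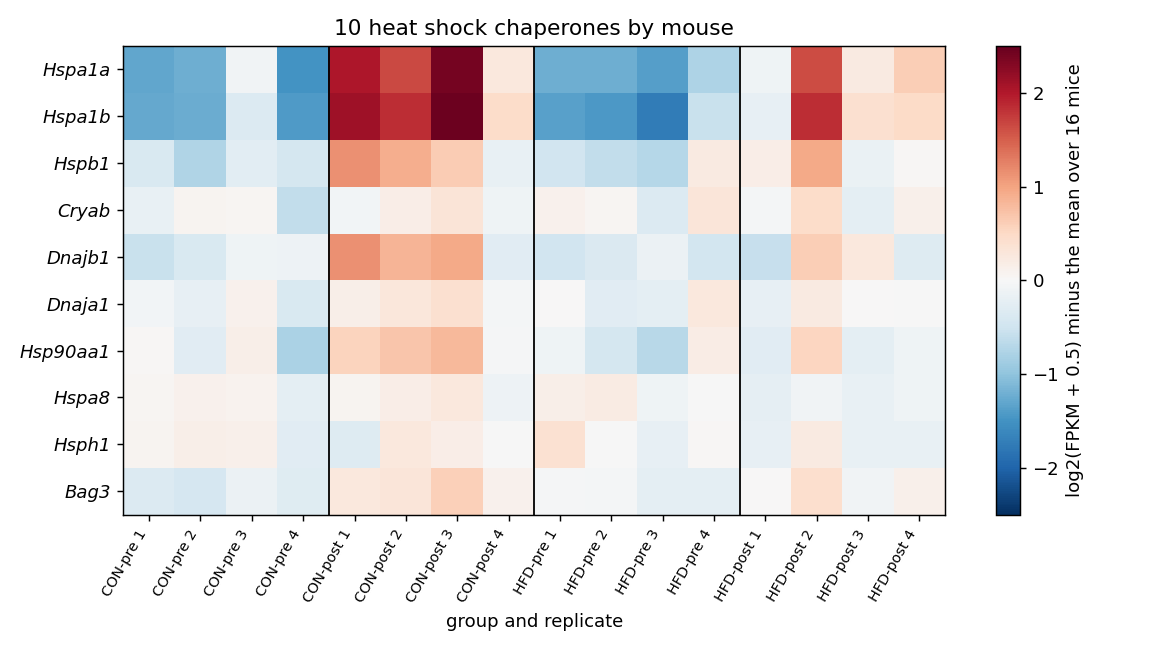
Log2(FPKM + 0.5) of each of the 10 members in each mouse (columns by group and replicate) minus the mean of that gene over the 16 mice, with red above and blue below it. The Hspa1 rows run from -1.75 to 2.45, CON-post replicate 4 is paler than the other CON-post columns, and HFD-post replicate 2 is the darkest HFD-post column.

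The rest of the chaperone network was described with 10 lists of 84 genes found in the table, of which 83 could be tested. Cryaa, a lens crystallin, fell below the minimum with a mean of 0.00608 FPKM. In CON 3 of the 83 rose after exercise and 0 fell (Dnajb4, Hspb7 and Flnc), or 3.61% against 0.968% of all genes higher. In HFD 0 passed with limma, and 11 of 83 (13.3%) had an unadjusted p under 0.05, near the 11.7% of all genes. Averaged over the diets 7 rose and 0 fell (those 3 with Hsf2, Hspa1l, Fkbp5 and Dnajb6), or 8.43% against 2.95% of all genes higher. The median log2 fold change of the 83 was 0.04 in CON and 0.03 in HFD, close to those of all genes (-0.01 and 0.04). In the comparisons of diet before and after exercise and of the difference in response limma called 0 of the 83, with 4, 2 and 2 at an unadjusted p under 0.05 (4.82, 2.41 and 2.41%, where all genes gave 8.25, 6.29 and 3.16%).

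Of the heat shock factors and their regulators, 1 of 4 passed. Hsf1, the factor that senses misfolded protein, had 13.7 ± 1.12 FPKM in CON-pre, 14.9 ± 0.578 in CON-post, 13.5 ± 1.57 in HFD-pre and 14.8 ± 1.22 in HFD-post. Its log2 fold change was 0.12 in CON (adjusted p = 0.649) and 0.13 in HFD (adjusted p = 0.604), which is its transcript and says nothing of its activity. Hsf2, which forms mixed trimers with Hsf1, was 6.03 ± 0.258 FPKM in CON-pre, 8.28 ± 0.741 in CON-post, 6.56 ± 0.846 in HFD-pre and 7.85 ± 1.06 in HFD-post, and it rose by 0.33 on the log2 scale averaged over the diets (SE 0.07, adjusted p = 0.0163).

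Of 11 other cytosolic Hsp40 genes, Dnajb4 and Dnajb6 passed. Dnajb4 was 18.1, 22.9, 22.9 and 19.3 FPKM in CON-pre and 44.0, 33.4, 50.2 and 33.6 FPKM in CON-post, without overlap. It rose by 0.92 in CON on the log2 scale (SE 0.13, adjusted p = 0.00101). In HFD it was 28.2, 23.0, 23.7 and 25.0 FPKM before and 31.2, 41.6, 35.6 and 38.7 FPKM after exercise, again without overlap, with a log2 fold change of 0.54 (adjusted p = 0.0920). Dnajb4 thus ran from 18.1 to 28.2 FPKM in the pre mice, above the level of Dnajb1 per unit of length. Dnajb6, whose mutation in people causes a limb-girdle muscular dystrophy, passed only averaged over the diets, with a log2 fold change of 0.30 (adjusted p = 0.0438).

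Of the 5 other small heat shock proteins tested, Hspb7 rose in CON. This heart and muscle chaperone, which binds filamin C, was 115 ± 14.8 FPKM in CON-pre and 194 ± 21.3 in CON-post, with a rise of 0.76 on the log2 scale (SE 0.14, adjusted p = 0.00950). In HFD-pre it was 165 ± 33.7 FPKM and in HFD-post 210 ± 33.1, which is 0.35 apart on the log2 scale (adjusted p = 0.335), and the median of these 5 genes was 0.07 in both diets.

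Of the 3 partners of Bag3 at the Z-disc, Flnc passed. Flnc, which encodes the actin cross-linker filamin C that Bag3 clears when it is damaged, was 72.8, 74.7, 72.6 and 81.5 FPKM in CON-pre and 178, 194, 216 and 128 FPKM in CON-post. It rose by 1.22 (SE 0.17, adjusted p = 0.00107) in CON, and replicate 4 was again the lowest of CON-post. In HFD Flnc was 112, 82.1, 82.0 and 116 FPKM before and 124, 210, 137 and 140 FPKM after exercise, without overlap and with replicate 2 the highest, a log2 fold change of 0.62 (adjusted p = 0.147).

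Of 8 other Hsp70 and Hsp110 genes, Hspa1l passed only averaged over the diets. It is a close relative that lies next to the Hspa1 pair, so its reads may be shared in part with theirs, and its log2 fold change was 0.31 (SE 0.08, adjusted p = 0.0458), with values of 0.22 in CON and 0.41 in HFD. Of 12 other Hsp90 genes and cochaperones, Fkbp5, a target of the glucocorticoid receptor, rose by 1.00 averaged over the diets (SE 0.22, adjusted p = 0.0180), with 0.97 in CON and 1.03 in HFD.

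The remaining lists held no gene that passed in the 3 exercise comparisons with limma. Averaged over the diets the number at an unadjusted p under 0.05 was 1 of 8 other Bag and Hsp70 cochaperones, 0 of 8 mitochondrial chaperones, 2 of 16 chaperones of the endoplasmic reticulum and 0 of 8 subunits of the TRiC chaperonin, which folds actin and tubulin. Of all genes, 18.5% were under that value. Their median log2 fold changes were 0.02, 0.05, -0.12 and 0.04. Of the genes of the endoplasmic reticulum, where secreted proteins fold, 12 of 16 estimates were below 0, and Sdf2l1 had the largest estimate of that list in any of the 6 comparisons, -0.87 in HFD-pre against CON-pre (adjusted p = 0.291). The largest in the other lists were Hspbp1 with 0.19 after exercise in HFD (adjusted p = 0.547), Hspe1 with 0.25 in HFD-pre against CON-pre (adjusted p = 0.589) and Cct6a with -0.18 after exercise in HFD (adjusted p = 0.559).

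**Figure D4:**
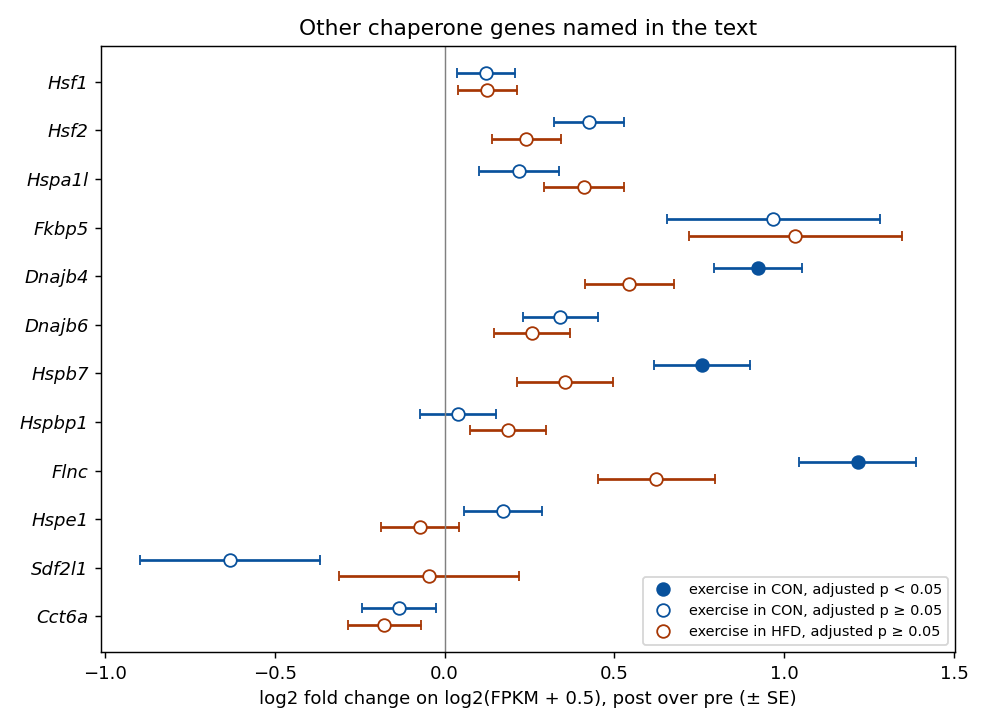
Log2 fold change after exercise (post over pre, horizontal axis on log2(FPKM + 0.5)) with its SE for the other chaperone genes named, in CON (blue) and HFD (orange), filled where the adjusted p was under 0.05. Dnajb4, Hspb7 and Flnc are filled in CON, at 0.92, 0.76 and 1.22, and no HFD point is filled.

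The genes whose level was most like that of the Hspa1 sum over the 16 mice were Srxn1 (r = 0.963 on the log2 scale), Klhl40 (0.962), Impact (0.954), Otud1 (0.949) and Atf3 (0.941), the highest Pearson correlations among the genes tested. The pre and post mice formed separate ranges in these genes, so each r spans the step between them, except in Klhl40, whose highest HFD-pre mouse (53.4 FPKM) was above its lowest HFD-post mouse (48.1 FPKM). After the group means were subtracted the correlations were 0.84, 0.87, 0.80, 0.79 and 0.82, which describe the same 16 libraries. Among the other members, Hspb1 ranked 17th (r = 0.908), Bag3 21st (0.902), Dnajb1 62nd (0.851), Hsp90aa1 67th (0.849) and Dnaja1 143rd (0.771), while Cryab (0.519), Hspa8 (0.187) and Hsph1 (0.083) were far down the order.

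Srxn1, which repairs oxidized peroxiredoxins, was 10.2 ± 0.362 FPKM in CON-pre and 35.2 ± 11.6 in CON-post, and 9.75 ± 2.35 in HFD-pre and 26.1 ± 8.76 in HFD-post. Klhl40, a kelch protein of the sarcomere, was 38.3 ± 0.840 FPKM in CON-pre and 91.4 ± 24.6 in CON-post, and 41.8 ± 7.80 in HFD-pre and 72.4 ± 24.7 in HFD-post. Impact, which restrains the amino acid sensor Gcn2, went from 4.77 ± 0.471 to 12.7 ± 3.82 FPKM in CON, and Otud1, a deubiquitinase, from 3.90 ± 1.32 to 33.2 ± 12.3 FPKM. Atf3, a stress-induced transcription factor, was 4.17 ± 1.48 FPKM in CON-pre and 39.5 ± 14.9 in CON-post, and 5.69 ± 2.62 in HFD-pre and 29.3 ± 12.8 in HFD-post. These genes were picked for following the Hspa1 sum over mice of all 4 groups. Their change with exercise is therefore given as levels, and their limma results are left out because of that choice.

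**Figure D5:**
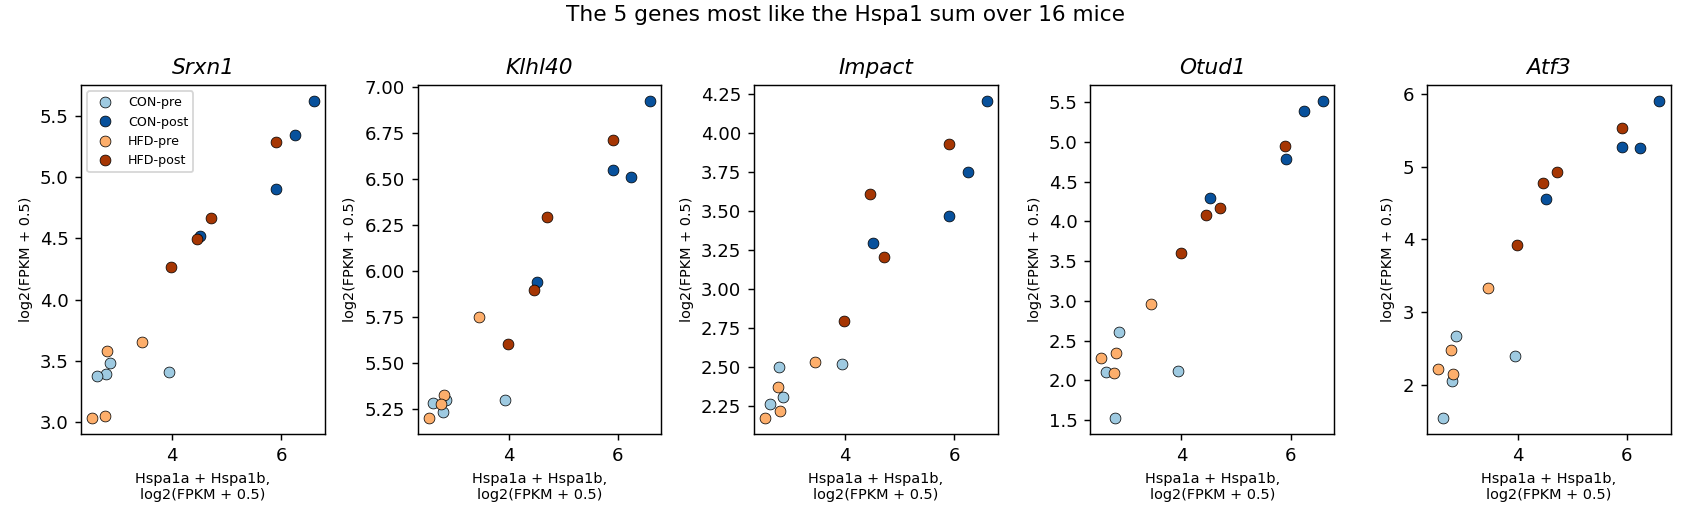
Level of each of the 5 most similar genes (vertical axis, log2(FPKM + 0.5)) against that of the Hspa1 sum (horizontal axis, same scale), with 1 point per mouse coloured by group. Pre mice lie at the lower left and post mice at the upper right of each panel, with CON-post replicate 4 among the HFD-post mice.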

How the data were processed

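The deposited values are FPKM that the authors estimated from quadriceps mRNA of 16 mice, with stranded libraries, TopHat and Cufflinks per the labels. Since FPKM carries no read counts, a count model could not be fitted. The study states its sequencing depth only roughly, and relative depth was taken from low values. The labels name mm9, but gene loci given by the study overlapped GRCm38 genes for 692 of 692 genes and NCBIM37 genes for 114, so positions are from RefSeq GRCm38.p6. Entries named as dates (27) were left out and repeated symbols (260) summed. Columns of sample values left out numbered 0. limma 3.58.1 (R 4.3.3) was fitted to log2(FPKM + 0.5) with a mean-variance trend and no covariate. The summed pair was tested in a fit in which it replaced Hspa1a and Hspa1b, and by exact permutation (scipy 1.17.1). On simulated data with 200 changed genes of 11256 in the CON exercise comparison, 99.5% were called, and 5 unchanged genes. Whether changes of the size seen in most members would be called as often was not tested. Groups with shared replicate numbers hold different mice. The members and gene lists were chosen with earlier results of these data known. Named were all members, list genes that passed (otherwise the largest estimate per list), Hsf1, Hsf2 and the 5 genes most like the sum. Alternatives were other pseudocounts, filters, scalings, weights, covariates, a replicate block, thresholds and leaving out each mouse. Metabolite data are not analysed here.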

Additional observations from a re-analysis of the deposited data

Results flagged for a closer look

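In groups of 4 mice the gap between the most extreme mouse and its nearest neighbour was set against the range of the group (Dixon's test at its 95% critical value), for the 10 members and the Hspa1 sum. Of 44 groups 5 stood out, where chance gives about 1 in 20. In CON-pre replicate 3, Hspa1a was 8.78 FPKM (3.02 to 3.75 in the other mice of its group), Hspa1b was 6.11 FPKM (2.64 to 3.02) and the sum of the pair was 14.9 FPKM (5.66 to 6.77), which is 1 observation in 3 forms. In HFD-post replicate 2, Hsph1 was 43.7 FPKM (32.2 to 32.7 in the others). In CON-pre replicate 4, Hspa8 was 124 FPKM, below the others (153 to 158).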

How the results depend on the processing

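Of 14 alternatives and 16 fits that each left out 1 mouse, none reversed a member that had passed, and Hspa1a, Hspa1b and Bag3 passed in CON in all 30. The reads behind each value are not in the table, so the counting error of Dnaja1 and Dnajb1, the lowest members, cannot be separated from the spread between mice. In HFD, 1 member (Hspa1b) passed when array weights were used and 1 at a threshold of 0.1. The log2 fold change of the Hspa1 sum was then 2.00 (adjusted p = 0.0468) and 1.87. When each mouse was left out in turn, members passing ranged from 3 to 5 in CON and from 0 to 2 in HFD, both highest without CON-post replicate 4, and the sum in HFD ranged from 1.49 to 2.13. The cause was not tested.

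Changes of sign were confined, among the members and alternatives run, to estimates near 0 that did not pass. Hsph1 after exercise in CON was -0.036 with upper-quartile scaling, -0.027 with quantile normalization and -0.0052 with an adipocyte covariate (-0.097 to 0.12 with a mouse left out). Before exercise, the diet estimates were 0.0042 for Hsp90aa1 with median-of-ratios scaling, -0.024 for Hspb1 and -0.00106 for Hsph1 with array weights, and -0.072 for Hsph1 with a slow-fibre covariate. Cryab after exercise differed between diets by 0.12 with quantile normalization. With a mouse left out, the estimates after exercise in HFD ran from -0.0090 to 0.17 for Dnaja1 and from -0.086 to 0.15 for Cryab, and Cryab between diets after exercise ran from -0.14 to 0.093. The diet estimates before exercise ran from -0.35 to 0.13 for the Hspa1 sum, -0.28 to 0.19 for Hspa1a, -0.44 to 0.040 for Hspa1b, -0.22 to 0.11 for Hsp90aa1, -0.14 to 0.17 for Hspb1, -0.021 to 0.11 for Hspa8, -0.082 to 0.11 for Hsph1 and -0.029 to 0.16 for Dnaja1.

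The replicate numbers showed no pairing of the mice in the correlations of their deviations from group means. Same-numbered mice correlated between -0.22 and 0.21 (median -0.02), and mice with other numbers between -0.22 and 0.21 (median 0.02). Of 16 mice, 6 were most like one with their own number, a count that was not set against chance. With a replicate block the counts of members passing stayed at 3 in CON, 0 in HFD and 4 averaged over the diets, and 116, 42 and 328 of all genes passed. Over the 14 alternatives the genes passing ranged from 72 (only the groups compared) to 208 (adjusted p under 0.1) in CON, from 27 (adipocyte covariate) to 93 in HFD, from 303 (no filter) to 779 averaged, from 29 to 63 for diet before exercise and from 2 to 32 for diet after it. With a mouse left out they ranged from 88 to 187 in CON (highest without CON-pre replicate 4), from 21 (without replicate 2 of either HFD group) to 78 in HFD, from 246 (without CON-pre replicate 1) to 566 averaged, from 21 (without CON-pre replicate 1 or 2) to 44 for diet before exercise and from 5 (without CON-post replicate 2) to 16 for diet after it. The comparison of responses gave 0 members in all 29 fits.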
